A study of Mus musculus with 4 samples.

Results

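Genes that tissue-resident macrophages use to bind, take up and digest material were examined in intraepithelial lymphocytes of the gamma delta T cell type, from the colon of untreated and injured mice. The 10 genes were Stab1, Dab2, Folr2, Selenop, Mrc1, Cd163, Cbr2, Mpeg1, Adgre1 and Mertk. All 10 were found on the array, on 13 of its 45101 probe sets, by matching each probe set's single gene symbol. Dab2 had 4 probe sets and each of the other 9 genes had 1. The genes were chosen from the same comparison of injured with untreated samples that is described here, with its results known, so their differences between the groups are a description and were not tested.

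All 4 samples were sorted from conventionally raised mice labelled C57b/6, and each was read on 1 single-colour expression array. The 2 untreated samples came from mice with no treatment. The 2 DSS samples came from mice that received 2% dextran sulfate sodium (DSS), which damages the lining of the colon, over 5 days and then recovered for 3 days on plain water. Age, sort gate and number of animals per sample were not given in the sources used here. Nothing in the labels says that replicates came from separate animals, so any spread between them may be technical.

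Scavenger and endocytic receptors let macrophages clear dying cells, haemoglobin, glycoproteins and debris without provoking inflammation. The receptors are gathered into clathrin-coated pits by adaptor proteins, internalised, and emptied in endosomes and lysosomes. In the healthy colon, resident macrophages of the lamina propria lie just beneath the epithelium and are replenished from blood monocytes. The genes are typical of macrophages and not of T cells, although several are also used elsewhere: Stab1 and Mrc1 by some endothelial cells, and Selenop and Dab2 by epithelia.

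The 2 groups of arrays differed in more than treatment. Hybridisation controls (bioB, bioC, bioD and cre), which are added in fixed amounts, averaged 82269 and 59067 on the 2 untreated arrays but 14372 and 15271 on the 2 DSS arrays, so array processing and treatment cannot be told apart. The ratio of 3' to 5' signal of Actb was 14.69 and 23.01 without DSS and 15.97 and 10.56 after DSS. The median signals of the arrays were 193.8 and 213.9 without DSS and 157.1 and 163.3 after DSS. Lymphocyte transcripts were bright: Cd3e, a chain of the T cell receptor complex, read 7981 to 18964, and the granzyme gene Gzmb 35792 to 65870. The gamma delta receptor constant genes Trdc and Trgc1 had no probe set with a single symbol. The gamma chain variable gene Trgv4 read 41444 and 46104 without DSS and 29034 and 31855 after DSS on its brightest probe set. The ending of that probe set marks possible binding of related transcripts. The log2 difference of DSS minus untreated was -0.52 there, and -0.10 and 1.46 on the 2 other probe sets of Trgv4. The direction therefore depends on the probe set, and the sorted subset was not checked further. Because the samples are bulk RNA, fewer cells of a type and less RNA per cell cannot be told apart.

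Of the 10 genes, 8 had both DSS signals above both untreated signals on their brightest probe set. On the probe set level this was 9 of 13, none was lower on both, and 4 overlapped. Of all 34958 probe sets with a single gene symbol, 14.5% were higher on both DSS arrays, and of the 12425 genes kept after filtering 17.2% were. As the genes were picked from this comparison, nothing is read from the contrast with those shares. On 7 of the 13 probe sets both DSS signals were at least 2-fold above both untreated signals, against 3.11% of all probe sets. A limma fit over all 12425 genes called 0 of them (0%) at an adjusted p threshold of 0.05. The smallest adjusted p was 0.0826, and 935 genes had an unadjusted p under 0.05. The count of calls was 67 with the replicate number as a block. Calls also rose when 1 untreated array was left out. Such a fit holds no measure of the untreated spread, so nothing is read from its count.

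**Figure D1:**
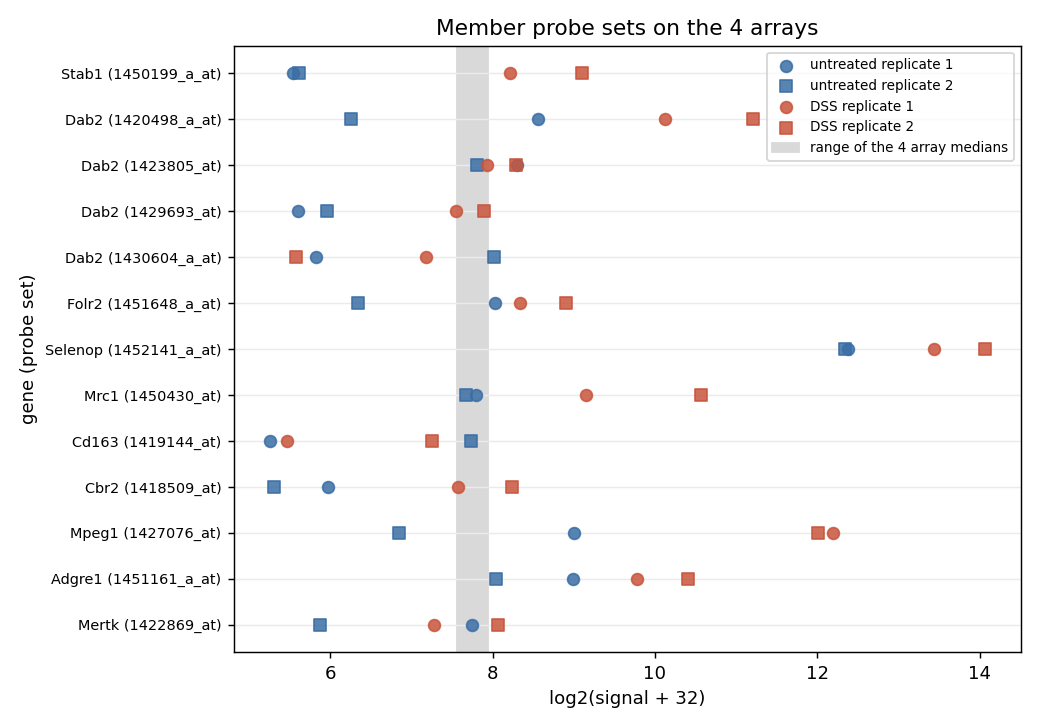
Signals of the 13 member probe sets on the 4 arrays, as log2(signal + 32), with untreated samples in blue, DSS samples in red, replicate 1 as circles and replicate 2 as squares. The grey band spans the 4 array medians. Both red symbols lie to the right of both blue symbols in 9 rows. In the rows of Cd163, Mertk and 2 Dab2 probe sets they overlap.

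Among the scavenger receptors, Stab1 encodes stabilin-1, which removes modified lipoproteins and matrix fragments. The signals of its probe set 1450199_a_at were 14.5 and 16.9 without DSS and 264.2 and 518.1 after DSS. Both untreated values lay among the dimmest probe sets of their arrays, at percentiles 7.9 and 7.3, and both DSS values above the median, at percentiles 63.8 and 77.5. The log2 difference of DSS minus untreated was 3.08 ± 0.93 (SE, n = 2 per group) on the log2(signal + 32) scale used throughout, which understates the change of dim genes. With a pseudocount of 1 it was 4.48 and with one 4 times as large as 32 it was 1.81, so its size rests on how values near the bottom of the array are treated.

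Mrc1 encodes the mannose receptor CD206, which binds mannose-bearing glycoproteins. Its probe set 1450430_at read 190.4 and 172.6 without DSS and 537.3 and 1485 after DSS. The untreated values sat just under their array medians and close together, while the DSS values were apart from each other by 1.41 on the log2 scale. The difference between groups was 2.12 ± 0.56 (SE, n = 2 per group), and it was 1.42 without DSS replicate 2 and 2.83 without DSS replicate 1.

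Cd163 encodes the receptor for haptoglobin-bound haemoglobin and is among the most specific surface markers of resident macrophages. The signals of its probe set 1419144_at were 6.19 and 180.0 without DSS and 12.3 and 120.3 after DSS. All 4 lay below the array medians, each group held 1 very dim and 1 moderately dim value, and the groups overlapped. The log2 difference was -0.13, and it was 0.07 on quantile-normalized arrays and 0.16 on arrays brought to a common median, so no direction can be given.

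Folr2 encodes folate receptor beta, a macrophage receptor anchored in the outer face of the cell membrane. Its probe set 1451648_a_at read 229.6 and 49.1 without DSS and 290.0 and 448.4 after DSS. The groups did not overlap, but the lowest DSS value was only 1.26 times the highest untreated value. The log2 difference was 1.43 ± 0.74 (SE, n = 2 per group), and it was 0.59 without untreated replicate 2 and 2.28 without untreated replicate 1.

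Dab2 encodes an adaptor that links receptors of the LDL family to clathrin and AP-2. On its brightest probe set, 1420498_a_at, the signals were 346.0 and 44.6 without DSS and 1085 and 2325 after DSS. The untreated arrays differed here by 2.30 on the log2 scale, the largest gap between them among probe sets higher in untreated replicate 1. The difference between groups was 3.25 ± 0.79 (SE, n = 2 per group), and it was 2.10 without untreated replicate 2 and 4.41 without untreated replicate 1. The other Dab2 probe sets did not all follow. Probe set 1429693_at read 16.4 and 30.1 without DSS and 154.7 and 205.0 after DSS, a difference of 1.94 on the log2 scale. Probe set 1423805_at read 284.3 and 191.1 against 211.6 and 280.3, with a difference of 0.05, and 1430604_a_at read 24.4 and 228.0 against 113.1 and 15.6, with a difference of -0.54. Averaging the 2 Dab2 probe sets that passed the filter gave 1.65.

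Mertk encodes a receptor tyrosine kinase of the TAM family through which macrophages recognise apoptotic cells. Its probe set 1422869_at read 183.2 and 26.5 without DSS and 123.3 and 235.1 after DSS. A single value, that of DSS replicate 2, exceeded its array median, and the groups overlapped. The log2 difference was 0.86, and it was -0.08 without untreated replicate 2.

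Adgre1 encodes F4/80, an adhesion G protein-coupled receptor and the classical surface marker of mouse macrophages. The signals of its probe set 1451161_a_at were 475.3 and 232.4 without DSS and 846.3 and 1331 after DSS. It lay above the median of all 4 arrays, the untreated ones included, at percentiles 73.9 and 52.5 without DSS and 84.0 and 89.2 after DSS. The log2 difference was 1.58 ± 0.49 (SE, n = 2 per group).

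Selenop encodes selenoprotein P, a secreted selenium carrier that cells retrieve by endocytosis. Its probe set 1452141_a_at was far above the median on all 4 arrays, at 5290 and 5142 without DSS and 11087 and 17100 after DSS, and no lower than the 97.0 percentile of any array. Its untreated replicates agreed within 0.04 on the log2 scale. The log2 difference of 1.40 ± 0.39 (SE, n = 2 per group) is a 2.63-fold difference, and it stayed between 1.08 and 1.71 when 1 array was left out. Selenop had the smallest standard error of the 8 genes fitted. These errors are drawn toward the spread of genes of like signal, so this does not measure replicate agreement alone.

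Mpeg1 encodes perforin-2, which forms pores in the membranes of engulfed bacteria. Its probe set 1427076_at read 481.6 and 82.8 without DSS and 4655 and 4075 after DSS. The log2 difference of 4.18 ± 0.69 (SE, n = 2 per group), 18.1-fold on that scale, was the largest of the 10 genes at this pseudocount. With a pseudocount of 1 it was 4.44, below the 4.48 of Stab1. It was 3.09 without untreated replicate 2 and 5.26 without untreated replicate 1. The DSS replicates were close, and the untreated replicates were apart by 2.16 on the log2 scale.

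Cbr2 encodes a carbonyl reductase that marks subsets of resident macrophages. The signals of its probe set 1418509_at were 30.5 and 7.68 without DSS and 158.8 and 269.8 after DSS. The lower DSS value stood at percentile 50.3 of its array, barely over the median, so Cbr2 only just passed the filter. The log2 difference was 2.27 ± 1.16 (SE, n = 2 per group), and it was 3.65 with a pseudocount of 1 and 1.20 with the larger one.

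The filter kept a probe set that exceeded its own array's median on at least 2 arrays. It kept 8 of the 10 genes, and left out Cd163 and Mertk. Stab1, Mrc1 and Cbr2 passed through the DSS arrays alone, and the other 5 had at least 1 untreated signal above its array median. The 8 kept genes had a median log2 difference of 2.20 and all 10 a median of 1.85, where all genes kept had a median of -0.07. A gene that is dim in 1 group can pass through the other alone, and the genes were picked from this comparison, so these medians only describe them.

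The sequences just upstream are shown for Stab1, Mrc1 and Cbr2, the kept genes whose untreated signals were all below the array medians. Mpeg1, which had the largest difference on the log2(signal + 32) scale, is also shown. The untreated signals of Cd163 and Mertk were below the medians too, but these genes were not kept and are not shown. Each is the stretch of 250 bases before a RefSeq transcript start (GRCm38.p6), written 5' to 3' along the gene's strand. Capitals mark GAGGAA or its reverse complement TTCCTC, the purine-rich core bound by ETS factors such as PU.1.

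Stab1, chr14:31168642-31168891, minus strand: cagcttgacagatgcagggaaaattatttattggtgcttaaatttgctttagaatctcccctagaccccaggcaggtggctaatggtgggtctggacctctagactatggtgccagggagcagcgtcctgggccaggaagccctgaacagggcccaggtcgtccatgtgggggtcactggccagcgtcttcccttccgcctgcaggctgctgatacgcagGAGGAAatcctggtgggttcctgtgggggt

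Mrc1, chr2:14229164-14229413, plus strand: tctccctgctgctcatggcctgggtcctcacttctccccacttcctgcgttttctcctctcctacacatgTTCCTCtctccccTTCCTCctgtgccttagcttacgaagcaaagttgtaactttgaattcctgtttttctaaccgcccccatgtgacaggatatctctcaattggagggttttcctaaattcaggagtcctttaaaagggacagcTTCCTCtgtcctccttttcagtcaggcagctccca

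Cbr2, chr11:120732022-120732271, minus strand: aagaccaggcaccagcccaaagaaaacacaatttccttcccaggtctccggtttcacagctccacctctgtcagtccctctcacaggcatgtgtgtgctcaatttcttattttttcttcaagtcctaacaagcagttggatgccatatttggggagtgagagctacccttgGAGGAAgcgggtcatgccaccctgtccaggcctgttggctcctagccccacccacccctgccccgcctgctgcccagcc

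Mpeg1, chr19:12460520-12460769, plus strand: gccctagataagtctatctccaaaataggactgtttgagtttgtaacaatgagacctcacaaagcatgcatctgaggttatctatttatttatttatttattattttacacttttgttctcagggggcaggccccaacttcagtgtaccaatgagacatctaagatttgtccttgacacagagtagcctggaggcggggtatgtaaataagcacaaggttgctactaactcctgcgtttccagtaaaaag

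The Mrc1 window held 3 matches, beginning at positions -180, -167 and -35 from the start, Stab1 held 1 at -30 and Cbr2 held 1 at -79. The Mpeg1 window held none, and neither did those of Cd163 and Mertk. Of the 10 genes, 9 had at least 1 such window, 13 windows in all, and Adgre1 had no entry. A match was found in 7 of the 13 windows, from 5 genes, against 23.3% of all 32851 windows. Dab2, Folr2 and Selenop have several windows, and those of Selenop overlap, so the windows are not independent. The other motif searched on both strands, the core TGCTGA of the MAF recognition element, was found in 4 of the 13 windows, from 3 genes (Stab1, Dab2 and Folr2), and in 16.1% of all windows. A match is a stretch of letters and not a measured binding site.

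Replicates of a group were compared next, since the genes were picked on differences between groups. The 13 probe sets share the same arrays and are not replicates, so counts are given without a test. In DSS samples 11 of the 13 probe sets read higher on replicate 2 than on replicate 1, where 51.1% of all probe sets did. The exceptions were Mpeg1 and Dab2 probe set 1430604_a_at. Over the brightest probe sets of the 10 genes the median log2 gap was 0.72, and over all probe sets it was 0.02. Dab2 on its brightest probe set, Mrc1 and Cd163, 3 of the 13, read over 2-fold higher on replicate 2 on the log2 scale. On that scale 11.6% of all probe sets did. Dab2 probe set 1430604_a_at read over 2-fold lower there. On quantile-normalized arrays and on arrays brought to a common median, 11 of 13 still read higher on DSS replicate 2. Of the macrophage markers kept, 13 of 16 read higher on DSS replicate 2, with a median gap of 0.36 and a summed signal of 96239 against 69364. So did 5 of 6 monocyte markers (median 1.18), 5 of 7 neutrophil markers (0.77), 4 of 4 B lineage markers (0.81) and 3 of 3 fibroblast markers (0.69). Dendritic cell markers had 3 of 5 higher (0.44), endothelial markers 3 of 5 (0.08) and gamma delta T cell and intraepithelial lymphocyte markers 8 of 14 (0.10). Epithelial markers had 3 of 10 higher (-0.04) and mast cell and eosinophil markers 1 of 3 (-0.02). Their part in the scavenger genes' gap was not tested.

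In untreated samples 9 of the 13 probe sets read higher on replicate 1, where 46.2% of all probe sets did. Of these, 4 did so by over 2-fold on the log2 scale used throughout, namely Dab2 on its brightest probe set, Mpeg1, Mertk and Folr2. On that scale 17.5% of all probe sets did. In raw signals Cbr2 (30.5 against 7.68) and Adgre1 (475.3 against 232.4) were over 2-fold higher as well. Cd163 and Dab2 probe set 1430604_a_at were over 2-fold lower on replicate 1. Stab1, Selenop and Mrc1 differed by at most 0.12 between the untreated arrays. The difference between groups therefore rests on 2 unlike untreated values for Dab2, Mpeg1 and Folr2, and on 2 like ones for Stab1, Selenop and Mrc1. Macrophage markers were split by gene in untreated samples, with 8 of 16 higher on replicate 1. These were Csf1r, C1qa, C1qb, C1qc, Lyz2, Pf4, Ms4a7 and Apoe, all of them raised after DSS. Fcgr1, Cd68, Siglec1 and F13a1 were also raised after DSS but read higher on untreated replicate 2. So did Vsig4, Pltp, Slco2b1 and Ccl8, which were not raised. These directions hold for the 1 probe set read per gene. The 2 other probe sets of Siglec1 differed by -2.12 and -0.04, and the other one of Ms4a7 by -0.58. Both genes were given these values after they were seen. Whether the markers' gap and that of the scavenger genes are linked was not tested.

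**Figure D2:**
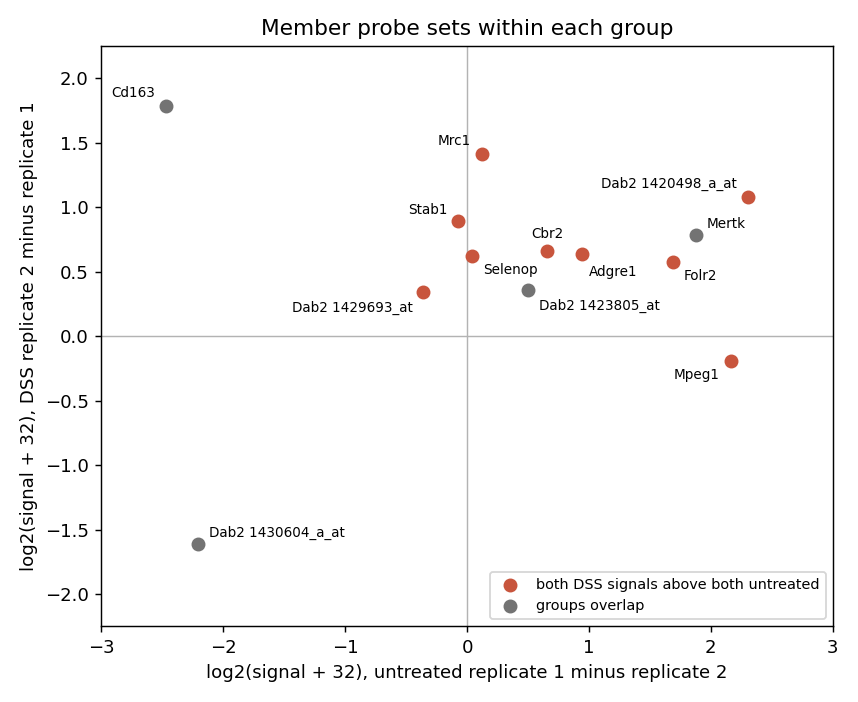
Gaps between replicates for the 13 member probe sets, with untreated replicate 1 minus replicate 2 on the horizontal axis and DSS replicate 2 minus replicate 1 on the vertical axis, both in log2(signal + 32). Red points are probe sets whose DSS signals both exceed both untreated signals, and grey points are those that overlap. Of the 13 points, 11 lie above the horizontal zero line and 9 lie to the right of the vertical one.

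Relatives of these genes gave other values. Of 12 close relatives kept, such as Stab2, Folr1, Axl and the lymphocyte perforin gene Prf1, 0 were higher on both DSS arrays and 7 were lower, with a median log2 difference of -0.31. That median was -0.24 after quantile normalization and -0.02 on arrays brought to a common median. Among all genes kept, 23.8% were lower on both DSS arrays. Pla2r1, a relative of the mannose receptor that binds secreted phospholipase A2, read 467.9 and 644.7 without DSS and 132.9 and 155.9 after DSS. Stab2, the other stabilin, read 597.4 and 502.4 against 253.3 and 269.8, a difference of -0.98 ± 0.43 (SE, n = 2 per group) on the log2 scale. Adgre4, a relative of Adgre1, differed by -1.05 on the brightest probe set, with 1.77 on the other.

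Other scavenger and endocytic receptors were mixed. Of 24 kept, 7 were higher and 4 lower on both DSS arrays, and the median was 0.01, or 0.27 after quantile normalization. Clec7a, which encodes the fungal glucan receptor dectin-1, read 494.4 and 292.6 without DSS and 1213 and 2265 after DSS. Lrp2, a retrieval receptor of epithelia that binds selenoprotein P, differed by -1.40 (other probe sets -1.67 to 0.15) and Scarf2 by -1.14 (others -0.54 to 0.49). Among 18 genes of apoptotic cell clearance 2 were higher and 3 lower, with a median of 0.06. Gas6, a bridging ligand of Mertk, read 397.1 and 286.7 against 207.8 and 86.1, and Havcr1 (TIM-1), a phosphatidylserine receptor, differed by 1.01 on the brightest probe set, with -0.65 on the other. Xkr8, a scramblase that exposes phosphatidylserine on dying cells, differed by -1.75 on the brightest probe set, with 1.20 on the other.

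The uptake machinery is shared by all cells. All 31 clathrin coat and early endosome genes with a probe set were kept, 9 of them higher and 6 lower on both DSS arrays, with a median of 0.29. Ap2s1, the small subunit of the AP-2 adaptor that Dab2 binds, read 131.8 and 28.5 without DSS and 411.4 and 370.7 after DSS. Snx9, a sorting nexin of coated pits, read 101.3 and 184.5 against 592.7 and 665.2, a difference of 1.96 ± 0.50 (SE, n = 2 per group) on the log2 scale, and 0.56 on its other probe set. Fcho2, an early pit protein, differed by 1.65 on the brightest probe set, with -0.19 on the other. Among 16 genes that handle haem, iron, folate and selenium 4 were higher and 0 lower, with a median of 0.27. Slc11a1 (NRAMP1), a metal exporter of phagosomes, differed by 1.45, the selenoenzyme Gpx1 by 1.07 and Selenok by 0.52. Hmox1, the haem oxygenase that acts on cargo of Cd163, did not pass the filter and read 176.7 and 351.1 against 8.03 and 142.3. It was named after its values were seen.

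Of 12 macrophage transcription factors kept, 5 were higher and 3 lower on both DSS arrays, with a median of 0.28. Maf, which sustains the resident macrophage program, read 65.4 and 94.0 without DSS and 436.3 and 1065 after DSS on its brightest probe set. The ending of that probe set marks possible binding of related transcripts. The difference was 2.69 on the log2 scale, and the 5 other probe sets of Maf ranged from -0.84 to 1.90. Klf4 differed by 1.79 ± 0.59 (SE, n = 2 per group), and by 0.44 on its other probe set. Spic, a factor of iron-recycling macrophages, read 208.3 and 216.8 against 16.5 and 15.7 on a probe set whose ending marks possible binding of related transcripts, and differed by 0.03 on its other. Spi1, which encodes PU.1, read 450.2 and 131.4 without DSS and 216.8 and 212.6 after DSS, and overlapped. It was named after its values were seen.

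Markers of other cells were read beside these genes. Of 16 macrophage markers kept, none of them among the 10 genes, 12 were higher on both DSS arrays and 1 was lower, and the median was 2.14. Their summed signal was 19504 and 37669 without DSS and 69364 and 96239 after DSS. Of the sum of untreated replicate 2, 32170 came from the lipid transfer gene Pltp, which differed by -0.97. Csf1r, the receptor for macrophage growth factor, differed by 4.02 (other probe sets 1.52 to 2.69), the lysozyme gene Lyz2 by 5.00 and the complement chains C1qa and C1qb by 2.89 and 4.18. Pltp and C1qb were read on probe sets whose endings mark possible binding of related transcripts. No macrophage marker was at 0, but Timd4 and Trem2, markers of long-lived and lipid-handling macrophages, were below the median of all 4 arrays and Cx3cr1 was above it on 1. Pltp and these 3 were named after their values were seen. Of 6 monocyte markers kept 3 were higher, led by Gda at 2.46 and Ccr2 at 2.04 (other probe sets 0.92 to 3.71 and -0.40 to 1.89), with a summed signal of 12455 and 13395 against 18652 and 26428. Ly6c2 had no probe set with a single symbol. Whether the scavenger genes' differences come with macrophages or monocytes in the sorted samples was not tested.

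The remaining lists give values for cells that also use some of these genes. Of 5 endothelial markers kept, 0 were higher and 3 lower on both DSS arrays, with a median of -0.93 and a summed signal of 2062 and 1965 without DSS and 1024 and 1390 after DSS. The defining endothelial genes Pecam1 and Cdh5 did not pass the filter, and Pecam1 and Lyve1 were below the median on all 4 arrays. Among 10 epithelial markers 2 were higher and 1 lower, with a median of 0.64 and sums of 11641 and 8977 against 14599 and 12385. Epcam overlapped on its brightest probe set. Krt8 differed by 0.78 (other probe sets 1.26 to 1.28), Car1 by 1.04 and Krt18 by -0.72. Dendritic cell markers had 1 higher and 2 lower of 5, with sums of 2828 and 3259 against 2681 and 2541, and their defining gene Flt3 was below the median on all 4 arrays. Neutrophil markers had 0 higher and 2 lower of 7, and sums of 1973 and 1767 against 1228 and 2184. The 2 lower were Mmp8, which differed by -1.85, and Mpo, by -0.99, and the list's median was -0.39, or -0.14 after quantile normalization. S100a8, which overlapped, read 204.4 and 31.1 against 80.2 and 883.1. Markers of B lineage cells (4 kept) and fibroblasts (3 kept) overlapped throughout, with B lineage sums of 1508 and 2786 against 1350 and 2282 and fibroblast sums of 801.9 and 738.6 against 559.8 and 944.8. Of 3 mast cell and eosinophil markers kept 1 was higher, Kit, which differed by 1.30 with -0.58 on its other probe set. Their sums were 863.3 and 1658 against 2509 and 2478. Of 14 gamma delta T cell and intraepithelial lymphocyte markers, 2 were higher and 7 lower, with a median of -0.44, or -0.16 after quantile normalization. Their summed signal was 687860 and 634423 without DSS and 365126 and 384591 after DSS. Very bright genes weigh most in this sum. Ccl5 read 166892 and 171899 against 55885 and 65842, and Gzma, which overlapped, 187735 and 53264 against 71928 and 75419. Itgae read 101512 and 98460 against 43558 and 43518 on a probe set whose ending marks possible binding of related transcripts, with a difference of 0.52 on its other. Cd8b1 differed by -2.35, and the 2 higher were Cd3d and Cd3g.

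**Figure D3:**
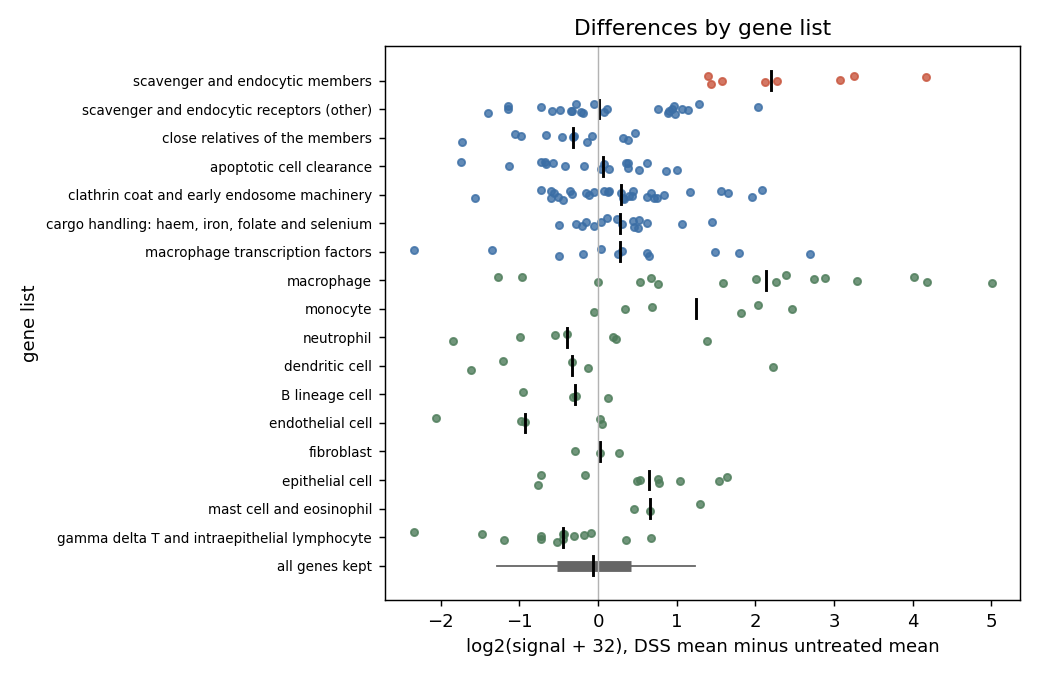
Log2 difference of DSS minus untreated for each kept gene of each list, on the log2(signal + 32) scale. Red points are the 8 scavenger and endocytic genes that passed the filter, blue points are lists of related functions and green points are cell type markers. Black bars are medians, and the lowest row gives the 5th, 25th, 75th and 95th percentiles of all 12425 genes as line and box. The members, which were picked from this comparison, have a median of 2.20, and macrophage markers one of 2.14.

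The genes with the most similar signal pattern over the 4 arrays were found by the root mean square distance between a gene's centred log2 values and the median pattern of the 8 kept genes. That pattern was -0.74 and -1.48 in untreated replicates 1 and 2 and 0.64 and 1.62 in DSS replicates 1 and 2. Cbr2 lay closest to it among the 8, at 0.12, and Mpeg1 farthest, at 1.17. Outside the set, the 8 nearest genes had distances of 0.10 to 0.17, against a median of 1.33 over the other genes. They were Ctsl, which encodes the lysosomal protease cathepsin L, Clec7a, the lipopolysaccharide coreceptor gene Cd14, the platelet factor Pf4, Setdb2, the sodium pump subunit gene Atp1b3, the lipoprotein gene Apoe and Aldh1l1, an enzyme of folate metabolism. Ctsl, the nearest, read 363.6 and 166.6 without DSS and 929.3 and 1742 after DSS, and its other probe set differed by 0.14. Cd14 read 543.8 and 360.2 without DSS and 1617 and 3668 after DSS, Pf4 read 381.5 and 267.9 against 1278 and 2153, and Apoe read 351.3 and 144.6 against 991.6 and 1784. Pf4 and Apoe are also in the macrophage marker list. In all 4 of these genes the dimmest array was untreated replicate 2 and the brightest DSS replicate 2. The median pattern that selected them has the same order, so this follows from the selection. Aldh1l1 differed by 2.26 on the brightest probe set, with -1.12 on the other. With 4 arrays many genes can share such a pattern, and the likeness is a description.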

How the data were processed

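Total RNA from 4 sorted samples was isolated with PicoPure, amplified with RiboAmp HS, labelled with biotin and hybridised to 1 array each, per the labels' protocols. The authors deposited linear signal intensities for 45101 probe sets, from GCOS per the submitters' processing notes; its algorithm and version were not given in the sources used here. Each array's intensities average 500.0 after 2% is trimmed at both ends. Depth has no counterpart here: the number of arrays limits the precision, and no detection calls were used.

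Probe sets were named from the platform table (34958 with 1 symbol, 932 with several, 9211 with none). By gene number 34754 matched RefSeq genes, which updated 0 symbols. None of the 13 probe sets has the endings that mark related transcripts, and 6 end in _a_at. Among the list genes named, Epcam and S100a8 were also read on probe sets with such endings. Signals were analysed as log2(signal + 32). Probe sets were kept that exceeded their own array's median on at least 2 of 4 arrays, and each gene was read on its brightest kept probe set, leaving 12425 genes. Cd163 and Mertk, which failed the filter, were read on their only probe set. Standard errors come from limma 3.58.1 in R 4.3.3 (group as the only term, eBayes with trend, Benjamini-Hochberg adjustment), tested on simulated data. They are drawn toward the spread of genes of like signal and need not follow a gene's own replicates. Cbr2, with replicate SDs of 0.46 and 0.47 in its untreated and DSS groups, had a standard error of 1.16. Dab2 on its brightest probe set, with SDs of 1.63 and 0.76, had one of 0.79.

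The 10 genes and all lists were chosen with earlier results of these data known. Genes named were the 10 and, per list, up to 3 with the largest difference whose groups did not overlap, with the first 2 of a cell type list. Exceptions are stated where they occur, or are Gzmb, Gzma, Cd3g, Trdc, Trgc1, Trgv4, Lyve1, Axl, Folr1 and Prf1, named with values known. The likeness rule names the 8 nearest genes outside the set. Names without a value are examples of a list. The lists of cells and functions hold 1 probe set per gene. Arrays sharing a replicate number were not taken as pairs: nothing in the labels pairs them.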

Additional observations from a re-analysis of the deposited data

How the results depend on the processing

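Limma called 0 genes after quantile normalization, after common-median scaling, with a pseudocount of 1 or 4 times 32, without a filter and without the trend. It called 1 of 8467 genes above the median on all 4 arrays, 3 with probe sets averaged, and 67 with the replicate number as a block. Same-numbered arrays' deviations from their group means correlated at 0.05 over genes, so the numbers were not used as pairs. Leaving out 1 array gave 0 to 1785 calls: 1785 without untreated replicate 1, 752 without untreated replicate 2 and 0 without either DSS array. Leaving out 1 array removes any measure of its group's spread, so these counts are not read as numbers of changed genes. The cause of their differences was not tested.

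The median log2 difference of the scavenger genes was 2.20. It was 2.97 with a pseudocount of 1 and 1.49 above the median on all 4 arrays, where 2 of the genes were left, and 1.68 to 2.72 when 1 array was left out. The count of probe sets higher on both DSS arrays was 9 under both other scalings and 9 to 11 without 1 array. Of 108 recomputed values of single genes, 6 changed sign and 5 others moved by more than the spread between replicates. The replicate block, the absence of a filter, the stricter filter and, for genes with 1 kept probe set, averaging repeat a value by construction, so the rest is no measure of stability. Cd163 went from -0.13 to 0.069 after quantile normalization, 0.16 after common-median scaling and 0.15 with a pseudocount of 1, and lay between -1.37 and 1.10 without 1 array. Mertk lay between -0.079 and 1.80 without 1 array. Common-median scaling moved the median of all genes from -0.07 to 0.22. The scalings of the counts within groups and of the lists were added after seeing the data. The background correction was not varied, as only processed signals were used.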
